A study of Mus musculus with 8 samples.

Results

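The 9 genes described here were chosen by name and not by a threshold on measured values: Csf1r, Csf1, Csf2ra, Csf2rb, Csf2rb2, Csf3r, Kit, Flt3 and Epor. All 9 were among the 23413 gene symbols of the deposited table. They encode receptors through which haematopoietic growth factors act on blood cells and macrophages, and 1 ligand, colony-stimulating factor 1. The libraries were made from 3 groups of mouse cells. Repopulating microglia (strain label DTRmg, 3 libraries) are the cells that refill the brain after microglia have been killed with diphtheria toxin, bone-marrow macrophages (strain label DTRmg, 3 libraries) are labelled as macrophages of marrow origin, and wild-type microglia (strain label DTR, 2 libraries) are the group with which both others were compared. The strain label thus differed along with the group in both comparisons with wild-type microglia, and the parts of strain and group cannot be told apart.

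All 8 samples carry the same treatment text: tamoxifen at 2 mg, given subcutaneously at postnatal days 12 and 14, and, to deplete microglia, 500 ng diphtheria toxin into the peritoneum on 3 occasions. The text does not say which groups received which agent, how old the mice were at collection, how long after depletion the cells were taken, or whether replicates came from separate mice, so p-values here measure only the spread between these samples. In the published study the toxin receptor was switched on by a tamoxifen-dependent Cre under the Cx3cr1 promoter, which limits the model to cells that express or have expressed Cx3cr1. Cells were released from the tissue with papain, enriched on Percoll and sorted by flow cytometry. Total reads per library ran from 5918944 to 12476427.

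Microglia are tissue macrophages that survive, in the brain as in culture, only while their receptor tyrosine kinase CSF1R is engaged by CSF1 or IL-34. Kit and Flt3 encode kinases of the same family and act in stem and progenitor cells. The GM-CSF receptor is built differently: a private alpha chain, encoded by Csf2ra, pairs with a beta chain shared with the IL-3 and IL-5 receptors, and JAK kinases bound to it phosphorylate STAT factors. The mouse carries an extra beta chain gene, Csf2rb2, whose product pairs with the IL-3 receptor alpha chain. Csf3r encodes the G-CSF receptor of neutrophils and their precursors, and Epor the receptor that carries red cell precursors through their maturation.

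In outline, Csf1r was the most abundant of the 9 transcripts in each library and lower in bone-marrow macrophages than in both kinds of microglia. The GM-CSF receptor genes Csf2ra and Csf2rb were higher in repopulating than in wild-type microglia, and Csf2ra was higher still in bone-marrow macrophages. Csf3r followed another order, with repopulating microglia above wild-type microglia and wild-type microglia above bone-marrow macrophages. Kit, Flt3 and Epor were close to the limit of detection in all groups. In bulk samples such as these, fewer cells of a type and less RNA per cell cannot be told apart.

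The pair Csf2rb and Csf2rb2 needs its sequences beside its values, because reads can be divided between near-identical copies in a way that depends on the counting. Both genes lie on chromosome 15 (GRCm38, GENCODE annotation), Csf2rb at chr15:78325752-78353847 on the plus strand and Csf2rb2 at chr15:78282507-78305721 on the minus strand. Their longest annotated coding sequences have 2688 and 2634 bases, and of 2628 aligned positions 2503 were identical (95.2%). Windows of 60 aligned coding bases were compared only where neither copy has a gap. A window of this kind in which the copies differ most has 13 mismatches, here in capitals (Csf2rb coding bases 304 to 363, Csf2rb2 coding bases 307 to 366):

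Csf2rb: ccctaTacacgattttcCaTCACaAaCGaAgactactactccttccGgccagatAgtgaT

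Csf2rb2: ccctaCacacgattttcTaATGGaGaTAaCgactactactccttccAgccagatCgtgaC

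At the other end of the scale, the longest stretch without a difference spans 242 coding bases and runs from base 2083 to base 2324 of the Csf2rb coding sequence. A read that falls wholly inside it carries no information on its gene of origin:

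Csf2rb and Csf2rb2: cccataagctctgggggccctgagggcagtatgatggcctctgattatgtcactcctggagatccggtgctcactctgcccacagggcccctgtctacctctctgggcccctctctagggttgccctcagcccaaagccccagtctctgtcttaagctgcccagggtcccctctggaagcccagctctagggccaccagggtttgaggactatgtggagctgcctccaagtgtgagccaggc

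Of all windows of 50 coding bases, 26.0% of those of Csf2rb and 26.6% of those of Csf2rb2 occurred unchanged in the other gene. For windows of 100 bases the shares were 11.0% for Csf2rb and 11.3% for Csf2rb2. The sources used here give neither the read length nor how the counting treated reads that match both genes. The division of counts between Csf2rb and Csf2rb2 is therefore uncertain.

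Upstream sequences were read from RefSeq promoter windows (build GRCm38.p6) for 7 of the 9 genes: Csf1, Csf2ra, Csf2rb2, Csf3r, Kit, Flt3 and Epor. Csf2rb had no entry among these windows. Csf1r was left out of the search, so nothing is said here of its upstream motifs. The 250 bases before each start site were searched on both strands for short forms of the motifs of factors that act on myeloid and blood cell genes, as follows: PU.1 (GAGGAA), C/EBP (TTGCNNAA), RUNX (TGTGGT), STAT (TTCNNNGAA), AP-1 (TGANTCA) and the GATA factors (with letters AGATAA). Csf2ra, at chr19:61223957-61228429 on the minus strand, held GAGGAA in tandem directly before its start site, at -14 and -8, in capitals here. These 250 bases are chr19:61228419-61228668, written along the minus strand, and the last of them fall inside the first exon as GENCODE draws it:

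Csf2ra: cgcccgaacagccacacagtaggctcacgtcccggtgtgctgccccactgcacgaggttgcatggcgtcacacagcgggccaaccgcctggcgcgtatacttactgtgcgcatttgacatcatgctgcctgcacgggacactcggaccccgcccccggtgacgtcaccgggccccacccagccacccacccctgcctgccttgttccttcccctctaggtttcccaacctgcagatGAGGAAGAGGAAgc

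Csf3r, at chr4:126024550-126044440 on the plus strand, held GAGGAA at -86 from its RefSeq start site, within chr4:126024561-126024590. That start site lies downstream of the GENCODE start, so this stretch is inside the gene as GENCODE draws it. Csf2rb2 held a match to the palindromic STAT form at -15, within chr15:78305722-78305751 on the minus strand. The 30 bases around each match are:

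Csf3r: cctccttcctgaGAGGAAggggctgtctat

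Csf2rb2: ggctagtgtccacaaTTCTGAGAAgcaagc

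Csf2rb2 also held GAGGAA on the opposite strand at -167, and Kit held it at -223 and -227 from its 2 annotated start sites. Epor held TGTGGT at -166 and AGATAA at -54, both on the opposite strand. The RefSeq start site of Epor lies outside the gene as GENCODE draws it. The first bases after that site were not found in a GENCODE transcript of Epor. Csf1 and Flt3 held none of the 6 motifs. Short motifs are common: among 32851 promoter windows of the same length, 23.3% held GAGGAA, 7.02% the STAT form, 14.0% TGTGGT, 9.99% AGATAA, 9.56% the C/EBP form and 6.75% the AP-1 form. The matches describe letters in these windows and do not show that a factor binds there.

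**Figure D1:**
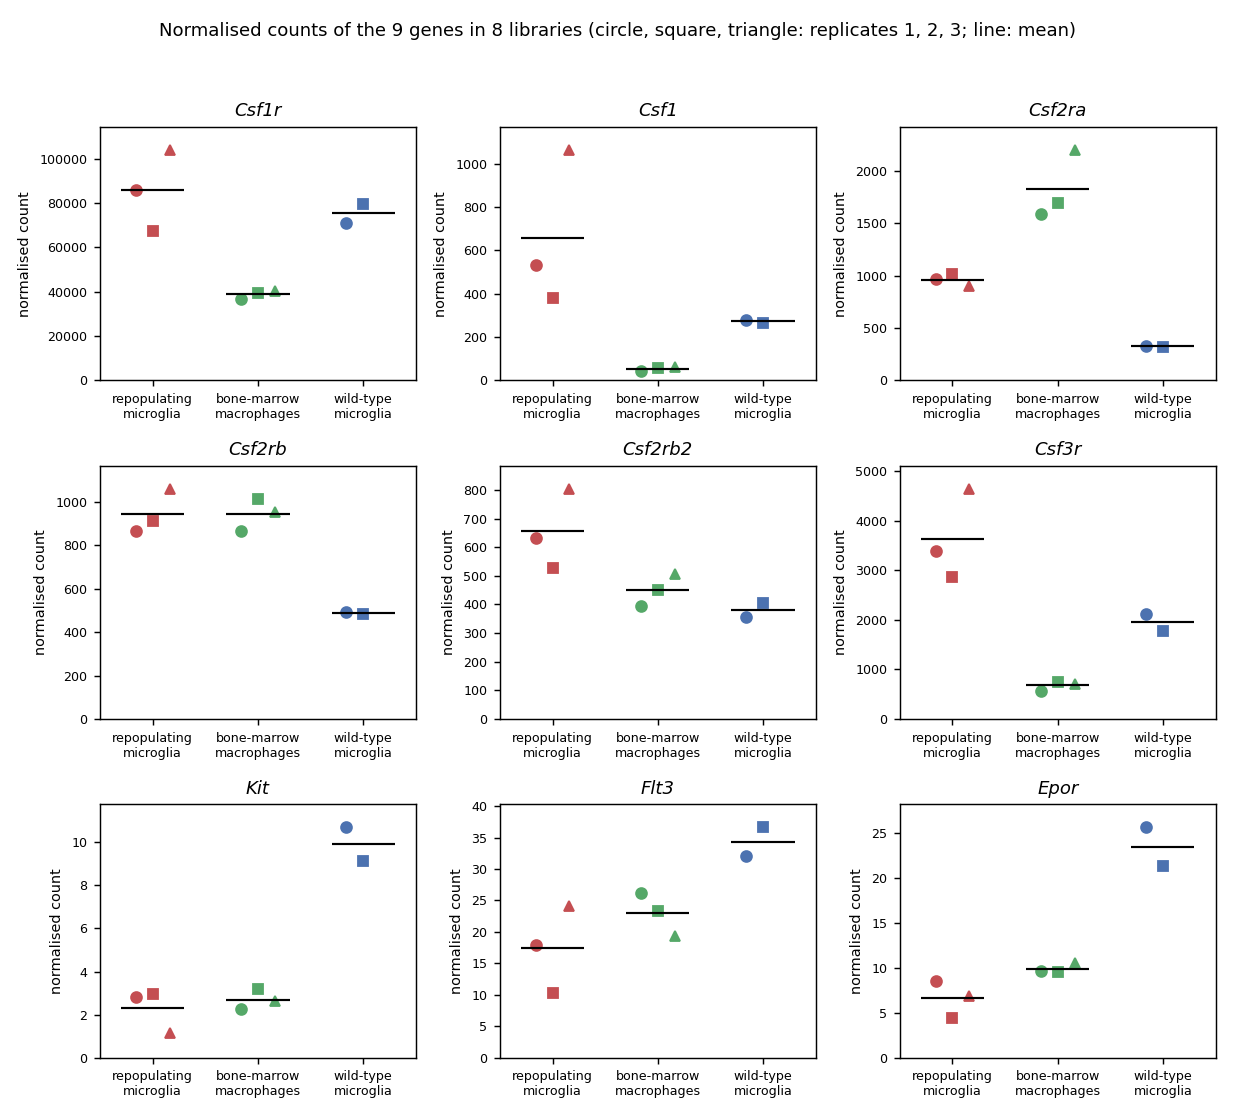
Normalised counts (reads divided by the authors' size factor, y axis, linear from 0) of the 9 genes in repopulating microglia, bone-marrow macrophages and wild-type microglia; each symbol is 1 library and the line is the group mean. Csf2ra separates all 3 groups, Csf3r runs from 2872 to 4639 in repopulating microglia against 573 to 753 in bone-marrow macrophages, and Kit stays under 11 throughout.

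Csf1, the ligand of CSF1R, had 534, 378 and 1062 normalised counts in repopulating microglia, 43.2, 58.3 and 60.0 in bone-marrow macrophages, and 279 and 264 in wild-type microglia. No group overlapped another, and repopulating replicate 3 stood far above the other repopulating libraries. The group means were 658 ± 359 (SD, n = 3), 53.8 ± 9.25 (SD, n = 3) and 272 ± 10.3 (SD, n = 2) in the same order of groups. Csf1 was lower in bone-marrow macrophages than in wild-type microglia by a log2 fold of -2.33 ± 0.37 (SE, limma adjusted p = 0.00146). It was higher in repopulating microglia than in bone-marrow macrophages, at 3.47 ± 0.33 (limma adjusted p = 0.000134), the widest difference of any of the tested genes of this set. Between repopulating and wild-type microglia the log2 fold was 1.14 ± 0.37, with a 95% interval of 0.29 to 1.99, and it did not pass (limma adjusted p = 0.0966). That verdict turned with single libraries: without repopulating replicate 2 the value was 1.47 (adjusted p = 0.0346), without repopulating replicate 3 it was 0.72 (adjusted p = 0.0247), and over all 20 alternatives the adjusted p ran from 0.0166 to 0.345.

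The genes whose profile over the 8 libraries lay closest to that of Csf1 were Egr1, Socs3 and Btg2, with root mean square log2 differences of 0.30, 0.42 and 0.45 from it. Egr1, an immediate-early gene, had 5968, 6137 and 13172 normalised counts in repopulating microglia, 594, 921 and 1290 in bone-marrow macrophages, and 3756 and 5211 in wild-type microglia. Like Csf1 it stood highest in repopulating replicate 3. Its part in the Csf1 result was not tested.

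Most of the other ligands of these receptors had few or no reads. Csf2, Csf3, Epo, Il3, Il5 and Thpo had no read in any of the 8 libraries, and Il34 had 0 to 2 reads per library. Each 0 allows up to 3 reads per library, counting error alone. Kitl, the ligand of KIT, had 182, 168 and 124 normalised counts in repopulating microglia, 128, 142 and 97.0 in bone-marrow macrophages, and 197 and 263 in wild-type microglia. It was lower in bone-marrow macrophages than in wild-type microglia, at a log2 fold of -0.91 ± 0.24 (limma adjusted p = 0.0165, range over the alternatives 0.00128 to 0.135). That call was lost without wild-type replicate 2 (-0.70, adjusted p = 0.135) and without bone-marrow replicate 3 (-0.75, adjusted p = 0.0574).

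Csf1r, the receptor of CSF1 and IL-34, had 85703, 67294 and 103825 normalised counts in repopulating microglia, 36903, 39376 and 40126 in bone-marrow macrophages, and 71104 and 79568 in wild-type microglia. The repopulating libraries straddled the wild-type ones, while the bone-marrow libraries lay below all the others. By normalised count Csf1r ranked 6, 8 and 3 among all genes in the repopulating libraries, 10, 11 and 10 in the bone-marrow libraries, and 8 and 5 in the wild-type libraries. Its transcripts made up 0.770% to 1.30% of all reads in repopulating microglia, 0.520% to 0.556% in bone-marrow macrophages, and 0.872% to 1.03% in wild-type microglia. Bone-marrow macrophages thus had the receptor transcript in quantity, at 38802 ± 1686 (SD, n = 3), against 75336 ± 5985 (SD, n = 2) in wild-type microglia. On the log2 scale the difference was -0.96 ± 0.22 (limma adjusted p = 0.00769), and the call ended only without wild-type replicate 2 (-0.87, adjusted p = 0.0642, range over 20 alternatives 1.36e-05 to 0.0642).

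Repopulating microglia, at 85607 ± 18265 (SD, n = 3), exceeded bone-marrow macrophages in Csf1r by a log2 fold of 1.12 ± 0.19 (limma adjusted p = 0.0027). Between repopulating and wild-type microglia the log2 fold was 0.16 ± 0.22 (limma adjusted p = 0.66), and its 95% interval of -0.33 to 0.66 includes moderate changes in either direction. The last exons of Csf1r share 873 bases with Hmgxb3, a gene on the opposite strand, and the libraries were not made with a kit that keeps strand. Hmgxb3 as a whole had 174 to 357 normalised counts per library, so the reads counted for it were few beside those of Csf1r. The profiles nearest to that of Csf1r were those of Ccpg1, Il10ra (the IL-10 receptor alpha chain) and Icam1 (an adhesion molecule), at root mean square log2 differences of 0.053, 0.073 and 0.085 over the 8 libraries.

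Transcripts that mark microglia, taken as a summed list of 11 genes, were also lowest in the bone-marrow libraries, and lower in the repopulating than in the wild-type libraries, where Csf1r overlapped. All 11 had reads in each group, and the sum ran from 267707 to 309452 in repopulating microglia, from 97632 to 110581 in bone-marrow macrophages, and from 431625 to 477434 in wild-type microglia. Tmem119, a microglial surface marker, had 26586, 19383 and 29806 normalised counts in repopulating microglia, 10110, 9461 and 11341 in bone-marrow macrophages, and 33850 and 36041 in wild-type microglia. P2ry12, a purinergic receptor that marks microglia, had 36757, 27059 and 34119.8 normalised counts in repopulating microglia, 2959.6, 4044 and 3020.2 in bone-marrow macrophages, and 75179.5 and 68682 in wild-type microglia. The libraries labelled as bone-marrow macrophages thus contained transcripts of both markers, with P2ry12 further below wild-type microglia than Tmem119. The part of cell makeup in the Csf1r difference was not tested. The bone-marrow libraries also held the most Mrc1, a marker of border-associated macrophages, with 3645, 4909 and 3706 normalised counts against 231 and 408 in wild-type microglia.

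Csf2ra, the alpha chain that binds GM-CSF, had 966, 1015 and 903 normalised counts in repopulating microglia, 1591, 1692 and 2197 in bone-marrow macrophages, and 328 and 321 in wild-type microglia. The 3 groups were fully separated, with the wild-type libraries lowest and the repopulating libraries in between. Group means were 962 ± 56.3 (SD, n = 3) for repopulating microglia, 1826 ± 324 (SD, n = 3) for bone-marrow macrophages and 325 ± 4.76 (SD, n = 2) for wild-type microglia. Csf2ra rose in repopulating against wild-type microglia by a log2 fold of 1.56 ± 0.16 (limma adjusted p = 0.00162), and this was the only one of the 9 genes called in that comparison under all 20 alternatives, the adjusted p lying between 1.31e-13 and 0.0344. Bone-marrow macrophages exceeded wild-type microglia by 2.47 ± 0.16 (limma adjusted p = 1.77e-05). Repopulating microglia remained below bone-marrow macrophages, at -0.91 ± 0.14 (limma adjusted p = 0.00154).

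The genes nearest to the Csf2ra profile were Kif1c, Fam129a and Acaca, the last encoding the rate-limiting enzyme of fatty acid synthesis, at root mean square log2 differences of 0.18, 0.20 and 0.21. A receptor chain with the same order of groups was Il3ra, the alpha chain of the IL-3 receptor, which is a relative of Csf2ra in structure and partners. It had 198, 218 and 103 normalised counts in repopulating microglia, 277, 296 and 398 in bone-marrow macrophages, and 53.4 and 39.7 in wild-type microglia, again without overlap. The log2 fold of repopulating over wild-type microglia was 1.81 ± 0.33 (limma adjusted p = 0.0157, range over the alternatives 1.76e-05 to 0.12). That call ended without repopulating replicate 1 (1.68, adjusted p = 0.0512), without wild-type replicate 1 (2.02, adjusted p = 0.101) and without wild-type replicate 2 (1.60, adjusted p = 0.12).

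Csf2rb, the beta chain through which GM-CSF, IL-3 and IL-5 signal, had 865, 911 and 1060 normalised counts in repopulating microglia, 865, 1013 and 951 in bone-marrow macrophages, and 493 and 482 in wild-type microglia. The repopulating and bone-marrow libraries overlapped, and both lay above the wild-type libraries. Csf2rb rose by 0.95 ± 0.14 in repopulating against wild-type microglia (limma adjusted p = 0.00719) and by 0.95 ± 0.14 in bone-marrow macrophages relative to wild-type microglia (limma adjusted p = 0.000878). These comparisons share the wild-type libraries. The call in repopulating microglia was lost without wild-type replicate 1 (0.96, adjusted p = 0.0875) and without wild-type replicate 2 (0.93, adjusted p = 0.0676), its range over 20 alternatives being 4.26e-07 to 0.0875. Between repopulating microglia and bone-marrow macrophages the log2 fold was 0.00 ± 0.12 with a 95% interval of -0.28 to 0.28 (limma adjusted p = 0.996).

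Csf2rb2, the copy that serves IL-3, had 634, 528 and 804 normalised counts in repopulating microglia, 393, 450.3 and 508 in bone-marrow macrophages, and 355 and 407 in wild-type microglia. Repopulating libraries lay above both other groups, and bone-marrow and wild-type libraries overlapped. The log2 fold of repopulating over wild-type microglia was 0.76 ± 0.20 and passed narrowly (limma adjusted p = 0.048). It was called in 8 of 19 alternatives, in a range of 0.00933 to 0.306, and the call ended without repopulating replicate 1 (0.78, adjusted p = 0.102), wild-type replicate 1 (0.67, adjusted p = 0.306) or wild-type replicate 2 (0.86, adjusted p = 0.161). It also ended without bone-marrow replicate 1 (adjusted p = 0.082), 2 (adjusted p = 0.0912) or 3 (adjusted p = 0.0779), which enter only through the shared estimate of spread. Against bone-marrow macrophages the repopulating value was 0.53 ± 0.18 (limma adjusted p = 0.0508), just short of the threshold, and it passed without repopulating replicate 2 (0.67, adjusted p = 0.0194) or 3 (0.37, adjusted p = 0.0452), in a range of 0.0194 to 0.31. Bone-marrow macrophages relative to wild-type microglia gave 0.24 ± 0.20 with a 95% interval of -0.21 to 0.69 (limma adjusted p = 0.354).

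Because the copies share reads, their balance was also expressed as the share of Csf2rb2 in the reads counted for both genes. It was 42.3%, 36.7% and 43.1% in repopulating microglia, 31.3%, 30.7% and 34.8% in bone-marrow macrophages, and 41.9% and 45.8% in wild-type microglia. Each share rests on 793 to 2214 reads. The widest exact Clopper-Pearson 95% interval, in wild-type replicate 1, ran from 38.4% to 45.4%, and such intervals cover counting error only. The 3 bone-marrow libraries lay below the other 5.

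The mean share was 40.7 ± 3.49% in repopulating microglia against 32.3 ± 2.22% in bone-marrow macrophages, a difference of 8.44 percentage points (exact permutation test, two-sided p = 0.1, the smallest that 3 against 3 libraries allow). Bone-marrow macrophages and wild-type microglia, at 43.8 ± 2.76%, differed by -11.5 points (exact permutation test, two-sided p = 0.2, the smallest possible with 3 against 2). Repopulating and wild-type microglia differed by -3.10 points (exact permutation test, p = 0.6). Adjusted over these 3 comparisons the values were 0.3, 0.3 and 0.6 by Benjamini-Hochberg, so none could pass.

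**Figure D2:**
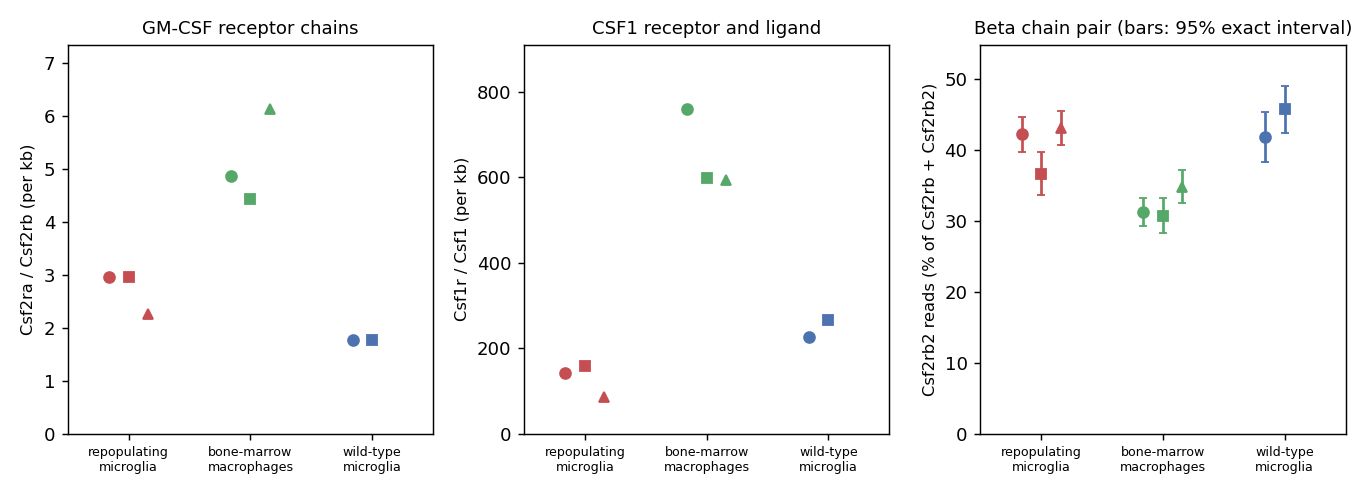
Ratio of Csf2ra to Csf2rb per kilobase (left), ratio of Csf1r to Csf1 per kilobase (middle) and share of Csf2rb2 in the reads of both beta chain genes (right, bars are exact 95% intervals), 1 symbol per library, for repopulating microglia, bone-marrow macrophages and wild-type microglia. The Csf2ra to Csf2rb ratio is 4.43 to 6.12 in bone-marrow macrophages, against 1.76 and 1.77 in wild-type microglia.

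Levels of different genes were compared per kilobase of the longest annotated coding transcript. On this scale the alpha chain exceeded the beta chain of the GM-CSF receptor in each library, with Csf2ra to Csf2rb ratios of 2.96, 2.96 and 2.26 in repopulating microglia, 4.88, 4.43 and 6.12 in bone-marrow macrophages, and 1.76 and 1.77 in wild-type microglia. The 3 groups did not overlap in this ratio. The Csf1r to Csf1 ratio per kilobase was 143, 158 and 86.8 in repopulating microglia, 759, 599.6 and 594 in bone-marrow macrophages, and 226 and 267 in wild-type microglia, so receptor transcripts outnumbered ligand transcripts least in the repopulating libraries.

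The Csf1r to Csf2ra ratio per kilobase was 34.9, 26.1 and 45.2 in repopulating microglia, 9.12, 9.16 and 7.18 in bone-marrow macrophages, and 85.3 and 97.4 in wild-type microglia. Here too the groups did not overlap. These ratios follow from the counts above and add no independent evidence.

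Csf3r, the G-CSF receptor, had 3382, 2872 and 4639 normalised counts in repopulating microglia, 573, 753 and 707 in bone-marrow macrophages, and 2125 and 1768 in wild-type microglia. The groups did not overlap. Bone-marrow macrophages, at 678 ± 93.6 (SD, n = 3), were below wild-type microglia, at 1947 ± 253 (SD, n = 2), by a log2 fold of -1.52 ± 0.22 (limma adjusted p = 0.00076). Repopulating microglia exceeded bone-marrow macrophages by 2.40 ± 0.19 (limma adjusted p = 5.26e-05). Against wild-type microglia the repopulating value was 0.88 ± 0.22 (limma adjusted p = 0.0415), called in 9 of 20 alternatives in a range of 0.00397 to 0.231. The call ended without repopulating replicate 1 (0.91, adjusted p = 0.0854), wild-type replicate 1 (1.01, adjusted p = 0.175), wild-type replicate 2 (0.74, adjusted p = 0.231) or bone-marrow replicate 1 (adjusted p = 0.0665), 2 (adjusted p = 0.073) or 3 (adjusted p = 0.0794).

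Csf3r is known above all from neutrophils, so neutrophil transcripts were summed beside it. Of 14 listed genes 13 were in the table, all 13 with reads in each group. Their sum was 5102, 5661 and 1786 in repopulating microglia, 1698, 1488 and 1735 in bone-marrow macrophages, and 30482 and 28530.0 in wild-type microglia. The gene with the highest mean over the 8 libraries was S100a9, with 450.4 to 946 normalised counts in repopulating microglia, 213 to 411 in bone-marrow macrophages and 8226 to 9115 in wild-type microglia. Csf3r thus stood lower in the wild-type libraries, which held the most neutrophil transcripts, than in the repopulating libraries. Between bone-marrow and wild-type libraries both ran the same way, with the bone-marrow libraries lower in Csf3r and in the neutrophil sum. Mmp9, a matrix protease on the list, made up much of the sum in only some repopulating libraries, with 1892, 3138 and 66.8 normalised counts in repopulating microglia, 257, 624 and 497 in bone-marrow macrophages, and 680 and 865 in wild-type microglia. Without Mmp9, left out after the values were seen, the sum was 3210.3, 2524 and 1719.6 in repopulating microglia, 1440.6, 864 and 1238 in bone-marrow macrophages, and 29803 and 27665 in wild-type microglia. The wild-type libraries remained highest. The part of neutrophils in the Csf3r values was not tested. Among the genes nearest to Csf3r were Ctsf (a lysosomal protease) and Pvrl2, at root mean square log2 differences of 0.16 and 0.19.

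**Figure D3:**
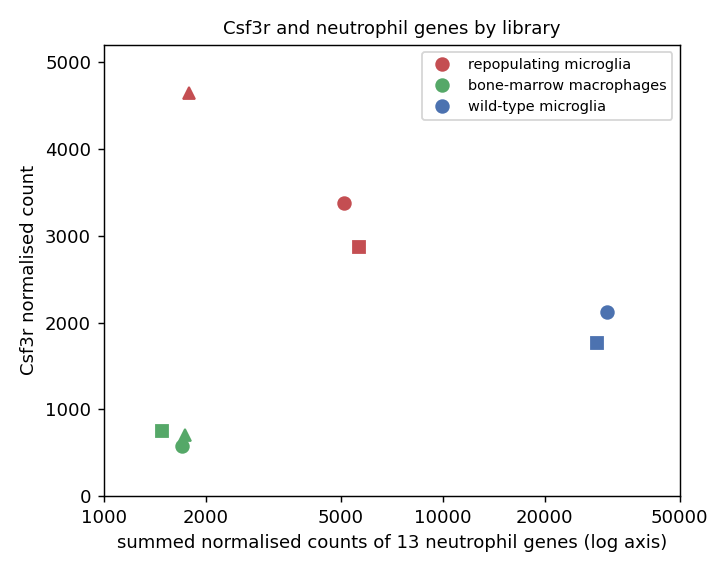
Csf3r normalised count (y axis, linear) against the summed normalised counts of 13 neutrophil genes (x axis, logarithmic) in the 8 libraries; circles, squares and triangles are replicates 1, 2 and 3. The wild-type libraries lie at the right with Csf3r at 2125 and 1768, and repopulating replicate 3 lies at the upper left with 4639.

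The remaining receptors were rare. Kit, the stem cell factor receptor, had 3, 2 and 1 reads in the repopulating libraries, 4, 3 and 3 in the bone-marrow libraries, and 10 and 9 in the wild-type libraries. In normalised counts these were 2.83, 2.95 and 1.15 in repopulating microglia, 2.27, 3.18 and 2.65 in bone-marrow macrophages, and 10.7 and 9.15 in wild-type microglia. Both wild-type libraries were above all the others, while repopulating and bone-marrow libraries overlapped. Kit reached 10 normalised counts in only 1 library and so was left out of the fit. The pooled ratio of repopulating to wild-type microglia, from 6 against 19 reads, was 0.233 with a 95% interval of 0.0761 to 0.606, and that of bone-marrow macrophages to wild-type microglia was 0.263 (0.109 to 0.595), both covering counting error only.

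Mast cells depend on KIT, and transcripts of mast cells and basophils were highest in the same libraries. The summed list of 10 genes had 39.7, 25.1 and 10.4 normalised counts in repopulating microglia, 23.3, 20.2 and 15.0 in bone-marrow macrophages, and 140 and 175 in wild-type microglia. Hdc made up most of the wild-type sum, with 70.5 and 113 normalised counts. The mast cell proteases Mcpt4, Tpsb2 and Tpsab1 were at 0 in both wild-type libraries. Cpa3, another mast cell protease on the list, was highest there, with 11.8 and 12.2 normalised counts. It had 3.78, 0 and 0 in repopulating microglia and 5.11, 1.06 and 0.88 in bone-marrow macrophages. Gata2, also on the list, had 9.62 and 14.2 in wild-type microglia and 1.70 to 4.24 in the other libraries. The part of such cells in the Kit reads was not tested.

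Flt3, the receptor of progenitors and dendritic cells, had 17.9, 10.3 and 24.2 normalised counts in repopulating microglia, 26.1, 23.3 and 19.4 in bone-marrow macrophages, and 32.1 and 36.6 in wild-type microglia. Both wild-type libraries lay above all the others. The log2 fold was -1.01 ± 0.38 in repopulating against wild-type microglia (limma adjusted p = 0.134) and -0.57 ± 0.38 in bone-marrow macrophages relative to wild-type microglia (limma adjusted p = 0.249), with 95% intervals of -1.86 to -0.15 and -1.43 to 0.29. The first of these passed without repopulating replicate 3 (-1.27, adjusted p = 0.0211), in a range of 0.0211 to 0.383. Repopulating microglia against bone-marrow macrophages gave -0.44 ± 0.34 (limma adjusted p = 0.366, 95% interval -1.21 to 0.33).

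Dendritic cell transcripts, a list of 10 genes with Flt3 among them, did not follow the order of Flt3 when summed. They summed to 1422, 981 and 1121 normalised counts in repopulating microglia, 1453, 1396 and 1578 in bone-marrow macrophages, and 983 and 946 in wild-type microglia, and no gene of the list was at 0 throughout a group. Itgax made up most of the sum in repopulating microglia (790 to 1211) and bone-marrow macrophages (1216 to 1378), and less of it in wild-type microglia (403 to 437). The order of the sum thus rested largely on Itgax. Cd209a, a lectin on the list, was highest in the wild-type libraries, at 186 and 193 normalised counts. It had 24.6, 25.1 and 23.0 in repopulating microglia and 27.8, 32.9 and 20.3 in bone-marrow macrophages. Clec9a and Zbtb46, also on the list, did not share this order. Clec9a had 7.56, 1.48 and 2.30 in repopulating microglia, 10.2, 7.42 and 7.94 in bone-marrow macrophages, and 4.27 and 4.07 in wild-type microglia. Zbtb46 had 10.4, 7.38 and 5.76 in repopulating microglia, 6.25, 10.6 and 10.6 in bone-marrow macrophages, and 11.8 and 7.12 in wild-type microglia. Classical monocyte transcripts, 7 of 8 listed genes being in the table and all 7 with reads in each group, summed to 628 to 1774 in repopulating microglia, 1686 to 2499 in bone-marrow macrophages, and 3994 to 5957 in wild-type microglia. Ccr2, the gene of that list with the highest mean, had 94.4 to 363, 917 to 1386 and 911 to 949 in the same order of groups. Its bone-marrow and wild-type libraries overlapped. The wild-type libraries, highest in Kit, Flt3 and Epor, were thus also highest in the monocyte sum, though not in Ccr2, and in the neutrophil sum given beside Csf3r. The part of such cells in the Flt3 and Epor values was not tested.

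Epor, the erythropoietin receptor, had 8.50, 4.43 and 6.91 normalised counts in repopulating microglia, 9.66, 9.55 and 10.6 in bone-marrow macrophages, and 25.6 and 21.4 in wild-type microglia. These correspond to 9, 3 and 6 reads, 17, 9 and 12 reads, and 24 and 21 reads. The wild-type libraries were highest and no groups overlapped. The gap between repopulating microglia and bone-marrow macrophages rests on few reads and did not pass, at a log2 fold of -0.56 ± 0.35 (limma adjusted p = 0.268). Epor was lower in repopulating than in wild-type microglia by a log2 fold of -1.72 ± 0.39 (limma adjusted p = 0.0323), and the fold was -1.16 ± 0.39 in bone-marrow macrophages relative to wild-type microglia (limma adjusted p = 0.0408).

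Both Epor calls depended on single libraries. In repopulating against wild-type microglia the call held in 10 of 19 alternatives, in a range of 0.0117 to 0.251, and ended without repopulating replicate 1 (adjusted p = 0.0521) or 2 (0.0557), wild-type replicate 1 (0.251) or 2 (0.146), or bone-marrow replicate 1 (0.0735), 2 (0.0662) or 3 (0.0672). In bone-marrow macrophages relative to wild-type microglia it held in 9 of 19, in a range of 0.00849 to 0.202. There it was lost without wild-type replicate 1 (0.202) or 2 (0.118), or bone-marrow replicate 1 (0.108), 2 (0.098) or 3 (0.0868). Of 10 listed erythroid genes 7 were in the table, and the transcripts of these were nearly absent. They summed to 1.15 to 9.44 normalised counts in repopulating microglia, 1.14 to 4.24 in bone-marrow macrophages and 4.07 to 8.55 in wild-type microglia. The globin genes Hba-a1 and Hba-a2 were at 0 in each group, and the listed beta-globin gene Hbb-bs was not among the gene symbols. How the counting treated reads that match more than 1 gene is not given, so reads matching both Hba-a1 and Hba-a2 could be missing from these values.

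Per kilobase, Csf1r led in each group and Kit was last. In repopulating microglia Csf1r had a mean of 18210.5 normalised counts per kilobase, followed by Csf3r at 1043 and Csf2ra at 520.03. Csf2rb (193), Csf1 (158) and Csf2rb2 (138) came next and overlapped their neighbours, and Flt3 (4.78), Epor (3.76) and Kit (0.441) closed the order, Flt3 overlapping Epor. In bone-marrow macrophages Csf2ra (988 per kilobase) took the place behind Csf1r (8254), ahead of Csf3r (195) and Csf2rb (192), which overlapped.

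In wild-type microglia the order per kilobase was Csf1r (16026), Csf3r (559), Csf2ra (176), Csf2rb (99.4), Csf2rb2 (80.3), Csf1 (65.0), Epor (13.3), Flt3 (9.39) and Kit (1.89), and no neighbours overlapped over its 2 libraries. The order of the beta chain copies, and that of Flt3 and Epor, depended on the length used. With the length of all annotated exons joined, Csf2rb2 stood above Csf2rb in repopulating microglia, at 138 against 130 per kilobase. In wild-type microglia the values were 80.3 against 67.0. On that length Epor stood above Flt3 in repopulating microglia (3.32 against 2.83) and in bone-marrow macrophages (4.99 against 3.72).

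Over the whole set, 8 of the 9 genes passed the filter of 10 normalised counts in at least 2 libraries, and 5 of these 8 were called in repopulating against wild-type microglia (limma adjusted p under 0.05), 4 higher and 1 lower. Among all 11415 genes tested, 8.61% were called in that comparison, 4.86% higher and 3.75% lower. The groups did not overlap in 7 of the 8 genes, a state found in 40.4% of all genes. The count of 5 was 1 without wild-type replicate 1 and 1 without wild-type replicate 2, where the lone wild-type library is assumed to vary like the other groups. It was 2 without repopulating replicate 1 or any single bone-marrow replicate, and 7 without repopulating replicate 3. Because the genes were chosen with earlier results of these data known, these counts stand beside the background as a description, with no test.

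Between bone-marrow macrophages and wild-type microglia 6 of 8 were called, 2 higher (Csf2ra, Csf2rb) and 4 lower (Csf1, Csf1r, Csf3r, Epor), where 43.5% of all genes were called, 21.3% higher and 22.2% lower. The groups did not overlap in 7 of 8 genes against 75.8% of all genes. In repopulating microglia against bone-marrow macrophages 4 of 8 were called, with Csf1, Csf3r and Csf1r higher and Csf2ra lower, where 30.9% of all genes were called, 16% higher and 14.9% lower. The groups did not overlap in 6 of 8 genes against 46% of all genes. Without wild-type replicate 2 the 6 called between bone-marrow macrophages and wild-type microglia became 4. The 3 comparisons share libraries and are not independent of each other.

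**Figure D4:**
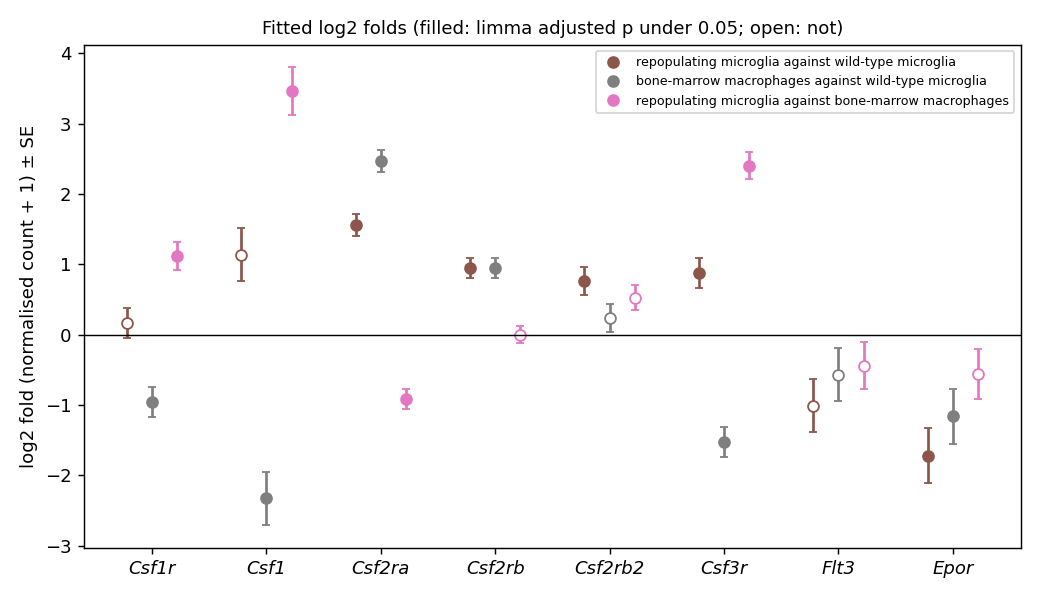
Fitted log2 folds on the log2(normalised count + 1) scale (y axis, bars are standard errors) of the 8 genes that passed the filter, in 3 comparisons: repopulating over wild-type microglia, bone-marrow macrophages over wild-type microglia, and repopulating microglia over bone-marrow macrophages. Filled symbols passed a limma adjusted p of 0.05: Csf2ra is filled in all 3 comparisons, and Csf1 reaches 3.47 in repopulating microglia against bone-marrow macrophages.

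The rest of the pathway was read from lists of other cytokine receptors, JAK and STAT proteins, feedback inhibitors, adaptors and kinases below CSF1R, and transcription factors known to act on Csf1r. None of the calls of these lists in repopulating against wild-type microglia held without wild-type replicate 1 or without wild-type replicate 2 (limma, 0 of 82 and 0 of 81 tested genes called, with 21 and 22 at an unadjusted p under 0.05). Of 15 tested cytokine receptors, Il3ra and Ifngr2 (an interferon-gamma receptor chain) were called higher and none lower in repopulating against wild-type microglia, with a median log2 fold of 0.19 against -0.02 for all genes. Over all genes 8.61% were called in that comparison, 4.86% higher and 3.75% lower. Bone-marrow macrophages relative to wild-type microglia had 3 higher and 7 lower, where 21.3% of all genes were higher and 22.2% lower, with a median of -0.56 against -0.01. Ifngr1, the interferon-gamma binding chain, was among the lower ones at -1.55 ± 0.13 (limma adjusted p = 6.35e-05), as was Il21r, the IL-21 receptor, at -1.10 ± 0.12 (limma adjusted p = 0.000228).

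Of 11 JAK and STAT genes, 4 were higher (Jak3, Tyk2 and Stat2 among them) and Stat4 was lower in repopulating against wild-type microglia, with a median of 0.06. Over all genes 8.61% were called in that comparison. Stat2, which carries type I interferon signals, had 493, 373 and 601 normalised counts in repopulating microglia against 205 and 195 in wild-type microglia, a log2 fold of 1.26 ± 0.20 (limma adjusted p = 0.00961, range over the alternatives 3.43e-06 to 0.099). That call was lost without wild-type replicate 1 (1.29, adjusted p = 0.099) or 2 (1.22, adjusted p = 0.0808). Jak3, the kinase of receptors that use the common gamma chain, was higher in repopulating microglia than in bone-marrow macrophages by 1.48 ± 0.15 (limma adjusted p = 0.000198). Of the 11, bone-marrow macrophages had 2 higher and 1 lower than wild-type microglia, and repopulating microglia had 3 higher and 1 lower than bone-marrow macrophages. Over all genes 43.5% and 30.9% were called in these comparisons.

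Among 18 tested feedback inhibitors, Socs7 was higher and Dusp6 lower in repopulating against wild-type microglia, with a median of 0.13. That total lies near the 8.61% of all genes called. Socs3, the inhibitor induced by STAT3, had 5222, 4900 and 6596 normalised counts in repopulating microglia, 434, 623 and 1042 in bone-marrow macrophages, and 3551 and 3890 in wild-type microglia. It was lower in bone-marrow macrophages than in wild-type microglia by -2.50 ± 0.31 (limma adjusted p = 0.000412) and higher in repopulating microglia than in bone-marrow macrophages by 3.07 ± 0.28 (limma adjusted p = 0.000101). The adaptors Dok2 and Dok3, which restrain receptor tyrosine kinases, ran the other way, at -2.68 ± 0.38 and -1.28 ± 0.18 in repopulating microglia against bone-marrow macrophages (limma adjusted p = 0.000941 and 0.000938). Of the 18, bone-marrow macrophages had 3 higher and 4 lower than wild-type microglia, and repopulating microglia had 3 higher and 2 lower than bone-marrow macrophages. Both totals lie near the shares of all genes called, 43.5% and 30.9%.

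Of 25 adaptors and kinases below CSF1R, Pik3ap1 and Fyn were higher and Fgr lower in repopulating against wild-type microglia, with a median of 0.10. That total lies near the 8.61% of all genes called. Fgr, a kinase of the Src family, was lower in bone-marrow macrophages than in wild-type microglia at -2.003 ± 0.17 (limma adjusted p = 5.09e-05), and so was the adaptor Gab1 at -2.44 ± 0.35 (limma adjusted p = 0.000855). Fyn, also of the Src family, was higher in repopulating microglia than in bone-marrow macrophages at 1.55 ± 0.18 (limma adjusted p = 0.000312). Bone-marrow macrophages had 5 higher and 6 lower than wild-type microglia, and repopulating microglia had 8 higher and 1 lower than bone-marrow macrophages. The totals are again near the 43.5% and 30.9% of all genes called. By direction the 8 and 1 were less even than all genes, of which 16% were higher and 14.9% lower in that comparison.

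Of 11 tested transcription factors known to act on Csf1r, Egr2 alone was called in repopulating against wild-type microglia. That is near the 8.61% of all genes called there. Relative to wild-type microglia, bone-marrow macrophages had 1 higher (Ets2) and 5 lower (Runx1, Cebpa, Irf8 and Egr2 among them), where 21.3% of all genes were higher and 22.2% lower, with a median of -0.38. Cebpa, a myeloid lineage factor, had 3156, 2900.1 and 3385 normalised counts in repopulating microglia, 1370.1, 1673 and 1751 in bone-marrow macrophages, and 2630 and 3038 in wild-type microglia. It was lower in bone-marrow macrophages than in wild-type microglia by -0.83 ± 0.15 (limma adjusted p = 0.0027), as was Runx1, a haematopoietic factor, by -1.21 ± 0.22 (limma adjusted p = 0.00264). Egr2 was higher in repopulating microglia than in bone-marrow macrophages by 3.63 ± 0.26 (limma adjusted p = 3.44e-05), 1 of 6 factors higher there with none lower, where 16% of all genes were higher and 14.9% lower. Its call in repopulating against wild-type microglia, at 1.50 ± 0.29 (limma adjusted p = 0.018, range 3.58e-05 to 0.177), was lost without wild-type replicate 1 (1.31, adjusted p = 0.177) or 2 (1.70, adjusted p = 0.0806).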

How the data were processed

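RNA was sequenced from 8 sorted mouse samples. Per the labels' protocols, RNA with an integrity number over 8 went into TruSeq version 2 libraries, a kit that loses strand. The submitters' processing notes name build mm10 and, as tools, DESeq 1.14.0, HTSeq, TopHat2 2.0.10 and Bowtie2 2.1.0.0. The deposited table holds a signal per gene, which from its values is a read count scaled by the authors with a single size factor for each library. Within a tolerance of 0.01 reads, 100% of values came out as whole multiples of what 1 read is worth, so reads were recovered by division, assuming that the smallest value stands for 1 read. Columns were matched to samples by name; 3 columns that name neither controls nor repopulating cells were taken as the bone-marrow macrophages by exclusion. No column was unused and no entry lacked a gene name. Of 23413 symbols 7003 were at 0 in all libraries. Replicates differed by more than counting noise. Repopulating replicate 3 stood apart, with correlations of 0.938 and 0.918 with replicates 1 and 2 on the log2 scale, against 0.979 between those.

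A gene was tested if 2 or more libraries had 10 or more normalised counts, which left 11415 genes and 99.9% of reads. Their log2(normalised count + 1) entered a limma 3.58.1 model (R 4.3.3) of the 3 groups, using a variance trend and no covariate. P-values are two-sided and adjusted by Benjamini-Hochberg over all genes within each comparison, with a threshold of 0.05. Fold changes on this scale understate changes of low genes. The fit was tested on simulated data. Alternatives changed the pseudocount, filter, scaling (equal totals, TMM), samples in the fit, replicate block, variance trend, the summing of Csf2rb with Csf2rb2, and the tool (edgeR 4.0.16 quasi-likelihood and DESeq2 1.42.0 on recovered reads), and left out each replicate in turn. Reads carry no molecular identifiers, so intervals of read shares and ratios cover counting error only.

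Genes and lists were chosen with earlier results of these data known. Named are all 9 genes, up to 3 genes per pathway list with the smallest adjusted p in any comparison, and the 3 genes with a mean of at least 100 normalised counts closest to a member in row-centred log2 profile. A few genes that make up a count of 5 or fewer, or mark a cell type, were named after their values were seen. Gene positions and lengths are from the GENCODE annotation of GRCm38, the build called mm10. Some genes of the lists are not reported here by name.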

Additional observations from a re-analysis of the deposited data

How the results depend on the processing

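Of 157 alternative fits of single genes of the set in repopulating against wild-type microglia, 119 left the call as it was, 34 ended it and 4 made one. In bone-marrow macrophages relative to wild-type microglia 11 of 157 ended a call, and in repopulating microglia against bone-marrow macrophages 4 of 156 made one. No called value changed direction. The 5 genes called in repopulating against wild-type microglia became 3 with no filter, 3 with libraries scaled to equal totals, 3 without the variance trend and 1 with only the 2 groups compared. Leaving out each replicate gave 1 to 7. For the other comparisons, where 6 and 4 were called, leaving out each replicate gave 4 to 6 and 4 to 5.

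Over all genes, 983 calls in repopulating against wild-type microglia became 82 with only the 2 groups compared, 1625 with DESeq2 and 67 to 2969 without each replicate, 2969 being without repopulating replicate 3 and 67 without wild-type replicate 1. Leaving out each replicate gave 2821 to 6992 calls where 4960 were called (bone-marrow macrophages relative to wild-type microglia) and 2212 to 5335 where 3526 were called (repopulating microglia relative to bone-marrow macrophages). Of the pathway genes, 13 of 82 were called in repopulating against wild-type microglia, 22 with DESeq2 and 0 with only the 2 groups compared (27 at an unadjusted p under 0.05), and 0 to 32 without each replicate. The 0 arose without wild-type replicate 1 (21 at an unadjusted p under 0.05) and without wild-type replicate 2 (22), where the lone wild-type library is assumed to vary like the other groups. The ranges for pathway genes were 21 to 45 and 21 to 41 in the other comparisons, with 38 and 32 called. The cause of these changes was not tested.

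Scaling to equal totals shifted the median fold over all tested genes to log2 values of -0.13, 0.14 and -0.25 in the 3 comparisons in the order above. The share of higher calls became 37.6%, 59.3% and 28.5%, against 56.5%, 49.0% and 51.8%. Whether the replicate numbers pair the samples is not known. Deviations of same-numbered libraries from their group means correlated at -0.24 to 0.24. This cannot settle the question, because the deviations of the 2 wild-type libraries mirror each other. With the replicate number as a block, 2, 5 and 5 genes of the set and 733, 4811 and 3564 of all genes were called. Without each replicate in turn, the difference in the Csf2rb2 share ran from -5.05 to -1.11 points, from -13.5 to -9.59 and from 7.22 to 10.4. The low counts of Kit, Flt3 and Epor set the limit of what could be detected: with no filter Kit gave -1.77 ± 0.45 (limma adjusted p = 0.0567), -1.56 ± 0.45 (0.0279) and -0.20 ± 0.40 (0.775).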
